A study of Rattus norvegicus with 8 samples.

Results

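The genes examined here are known from the magnocellular vasopressin and oxytocin neurons of the hypothalamus, though not all are particular to them, or encode receptors for these hormones. The members were chosen by symbol as Avp, Oxt, Pdyn, Creb3l1, Caprin2, Rasd1, Gal, Avpr1a and Oxtr. Of these 9 genes, 8 were found, with 12 polyadenylation sites between them, among 18003 gene symbols and 98356 sites in all. Creb3l1, which encodes a transcription factor known from vasopressin neurons, was not analysed here. The libraries came from the hypothalamus of adult male Long-Evans rats. Cannabis rats (n = 4, replicates 1, 2, 3 and 5) breathed vaporized cannabis plant matter, and air control rats (n = 4, replicates 1 to 4) were placed in the same kind of apparatus with an empty vaporizer. The rats were free feeding, and food was withheld for 1 hour before the tissue was taken. The study took the tissue 1 hour after a single exposure. The methods name more rats per group than there are libraries, and whether a library is 1 rat or a pool was not stated. The whole hypothalamus was dissected from frozen brain according to the methods, while the design record names the mediobasal hypothalamus.

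Magnocellular neurons of the supraoptic and paraventricular nuclei make vasopressin or oxytocin as large precursors, which are cleaved in granules on the way to the posterior pituitary. Vasopressin acts on water balance and blood pressure, and oxytocin on milk ejection and parturition. Both peptides are also released within the brain, where they act on social behaviour and feeding.

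Whole Transcriptome Termini Sequencing samples the 3′ termini of polyadenylated RNA, so a value counts transcript ends and needs no correction for transcript length. All values below are normalized counts, that is, reads at a site after scaling each library by its size factor, and a gene total is the sum over the sites of that gene. The libraries held between 1159811 and 3706778 reads on sites, and 1 read was worth between 0.664 and 1.99 normalized counts. Air control replicate 4 was the shallowest library, and 26.1% of sites had no read in it, against as few as 3.32% in air control replicate 1. A count of 0 reads allows up to 3 reads, which corresponded to between 1.99 and 5.96 normalized counts depending on the library and covers counting error only. Hypothalamic transcripts were present in every library, and Pmch, the melanin-concentrating hormone precursor of the lateral hypothalamus, ranged from 345.6 to 1263 normalized counts. The summed transcripts of a list of midbrain dopamine markers set the groups apart. Of the 7 markers tested, 4 (Th, Slc6a3, En1 and Ddc) were lower in the cannabis libraries at an unadjusted limma P below 0.01. This was the first threshold of the study, and 0.178% of all gene totals were lower at it. Th also stands in another list below, and the cells these transcripts came from were not determined. The sum over these 7 markers was 794 to 1033 in the air controls and 237 to 416 in the cannabis libraries, and its part in the results below was not tested.

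Avp and Oxt were the most abundant members and the only ones of the 8 whose gene totals passed the 0.01 threshold. Avp, the vasopressin precursor gene, averaged 2.53 times more transcript ends in the cannabis libraries, and Oxt, the oxytocin precursor gene, 2.0 times more. Of all 18003 gene totals, 50 passed it (0.278%), of which 18 were higher (0.1%) and 32 lower (0.178%) in the cannabis libraries. Neither gene passed the second threshold of the study, an adjusted P below 0.1, which 1 gene total passed (0.00555%). The median log2 difference over the 8 members was 0.16, against 0.05 over all genes, and 6 of the 8 differences were positive, against 56.4% of all genes. With every library scaled to an equal number of reads, the median was 0.13 over the members and 0.01 over all genes. At that scaling Rasd1 and Oxtr, which were among the positive differences at 0.01 and 0.02, were negative (-0.041 and -0.015).

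The stretches before the start sites of Avp and Oxt are shown because these neighbouring genes carried the largest differences among the members. They are taken from RefSeq (GRCr8) and written 5′ to 3′ on the strand of the gene, ending at the base before the start. Avp lies on the minus strand (chr3:138248523-138248772) and Oxt on the plus strand (chr3:138235504-138235753). Capitals mark matches to 4 short motifs.
Avp: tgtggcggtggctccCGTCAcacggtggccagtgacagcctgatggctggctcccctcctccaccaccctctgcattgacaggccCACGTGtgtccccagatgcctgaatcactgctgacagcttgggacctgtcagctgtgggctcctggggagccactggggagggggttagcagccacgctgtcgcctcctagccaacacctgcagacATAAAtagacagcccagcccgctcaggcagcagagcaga
Oxt: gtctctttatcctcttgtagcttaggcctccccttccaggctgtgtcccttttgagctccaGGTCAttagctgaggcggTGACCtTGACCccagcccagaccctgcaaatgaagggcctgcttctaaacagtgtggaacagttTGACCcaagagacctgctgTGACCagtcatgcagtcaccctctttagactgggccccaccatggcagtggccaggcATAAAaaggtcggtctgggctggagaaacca

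The G-box CACGTG is bound by helix-loop-helix factors and was searched on both strands. The core of the cAMP response element, TGACG, was searched on both strands as well. The nuclear receptor half-site GGTCA was also searched on both strands, and matches on the opposite strand stand above as their reverse complements. The TATA-like run ATAAA was searched on the strand of the gene only, and no match overlapped another. The Avp stretch held 1 G-box, at 165 bases before the start, and 1 cAMP element core, at 235 bases. The Oxt stretch held neither but had 5 half-sites, at 189, 171, 165, 107 and 88 bases before the start, and the Avp stretch had 0. A TATA-like run stood at 39 bases in Avp and 31 in Oxt. Members that did not pass the threshold held matches too. The cAMP element core was found for Rasd1, Gal, Avpr1a and Oxtr, and half-sites for Rasd1 (2), Gal (1) and Oxtr (2). The TATA-like run was found for Pdyn, Gal and Avpr1a, and the G-box for none of them. Among 33469 rat promoter windows of the same length, 5.59% held the G-box, 18.2% the cAMP element core, 35.4% at least 1 half-site and 25.2% the TATA-like run. The GC content was 63.6% for Avp and 55.2% for Oxt. A match describes the letters only, and no binding was measured.

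Avp transcript ends came from 1 site (chromosome 3, 123117467 to 123117504, minus strand, Rnor_6.0). The air control libraries held 3082, 1178, 1054 and 2494 normalized counts in replicates 1 to 4. The cannabis libraries held 5799, 3278, 4343 and 6314 in replicates 1, 2, 3 and 5. Every cannabis library lay above every air control, although the lowest cannabis value (replicate 2) was close to the highest air control value (replicate 1). The means were 1952 ± 996.1 (SD, n = 4) and 4934 ± 1383 (SD, n = 4). The log2 difference was 1.44 (SE 0.34, 95% interval 0.71 to 2.18, limma P = 0.000924, Benjamini-Hochberg adjusted P = 0.999), and an exact two-sided permutation test gave P = 0.0286, the smallest that 4 against 4 samples allow. In the limma fit over single sites, where the spread is estimated from another set of values, the same site gave an adjusted P = 0.634. Avp was the only member of the 8 with all cannabis libraries above all air controls, an arrangement found for 1.19% of all gene totals. The reverse arrangement held for 0 members and 0.783% of all gene totals. It rested on 30265 reads in all. In bulk tissue, more vasopressin cells in the sample and more Avp RNA per cell cannot be told apart.

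**Figure D1:**
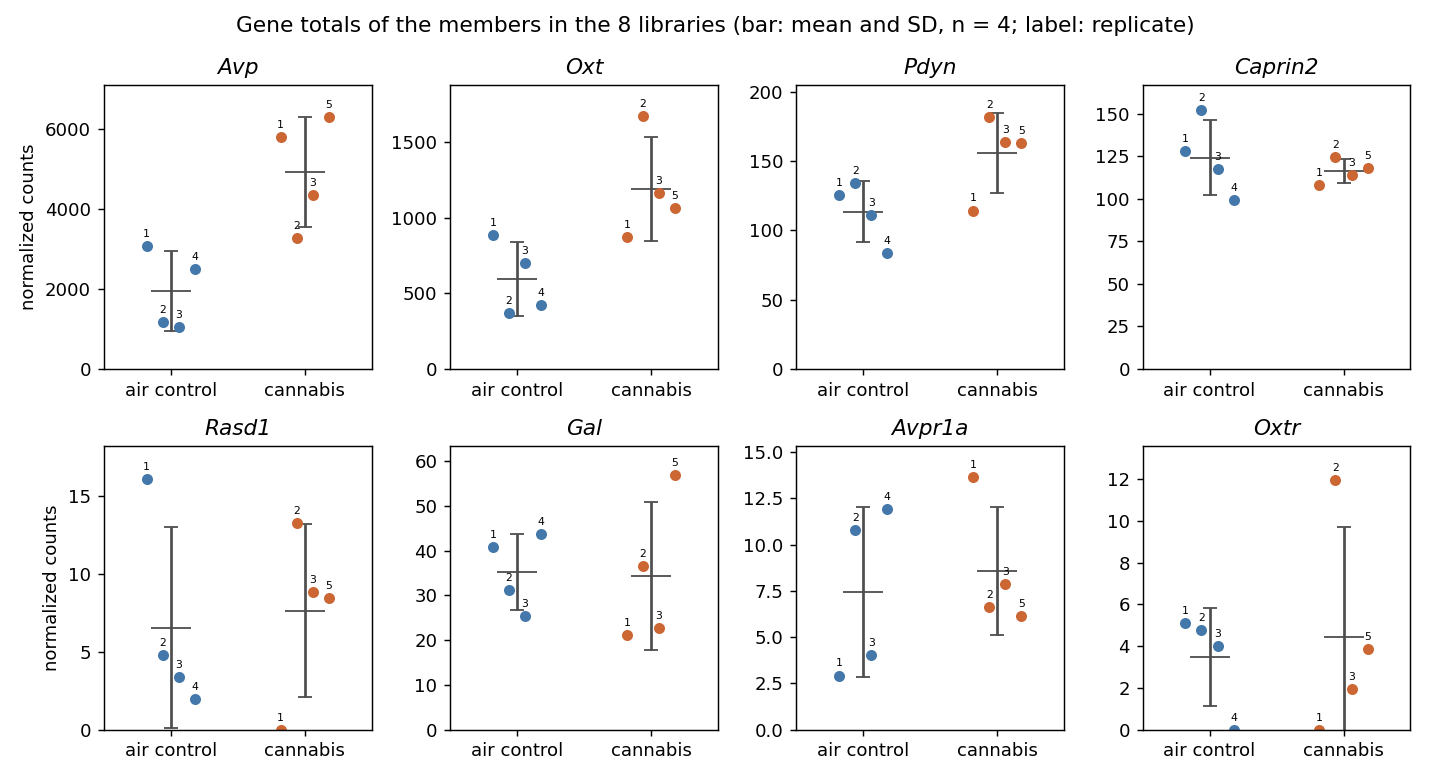
Gene totals of the 8 members in each library (normalized counts, a panel with its own axis for each gene), with air control and cannabis libraries as points and the mean ± SD (n = 4) as a bar with whiskers. Avp separates the groups completely, Oxt overlaps through 1 library of each group, and the other members overlap.

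Oxt transcript ends also came from 1 site (chromosome 3, 123107465 to 123107803, plus strand, Rnor_6.0). The air control libraries held 888.9, 371.1, 701.6 and 421.0 normalized counts, and the cannabis libraries 870.5, 1674, 1161 and 1065. The groups overlapped only through air control replicate 1, which lay just above cannabis replicate 1. The means were 595.7 ± 243.7 (SD, n = 4) and 1193 ± 343.0 (SD, n = 4). The log2 difference was 1.05 (SE 0.29, 95% interval 0.43 to 1.68, limma P = 0.00297, adjusted P = 0.999), with an exact permutation P of 0.0571. The difference no longer passed the 0.01 threshold without air control replicate 2 (log2 difference 0.85) or without cannabis replicate 2 (log2 difference 0.87), which held the lowest and the highest Oxt value. Oxt rested on 8570 reads in all.

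As CPM, over the reads on sites, Avp averaged 835 ± 414 (SD, n = 4) in the air controls and 2097 ± 601 in the cannabis libraries, and Oxt 255 ± 101 and 504 ± 133. The difference in each gene was thus of the same order when set against library depth alone. The ratio of Avp to Oxt within a library was 3.47, 3.17, 1.5 and 5.92 in the air controls and 6.66, 1.96, 3.74 and 5.93 in the cannabis libraries. Avp was more abundant than Oxt in all 8 libraries, and the ratio ranged widely in both groups. On the log2 scale the ratio was 1.65 ± 0.81 (SD, n = 4) and 2.04 ± 0.80 (SD, n = 4), a difference of 0.39 that lay within the spread of the libraries (exact permutation P = 0.429). Without single libraries this difference ranged from 0.04 to 0.75.

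**Figure D2:**
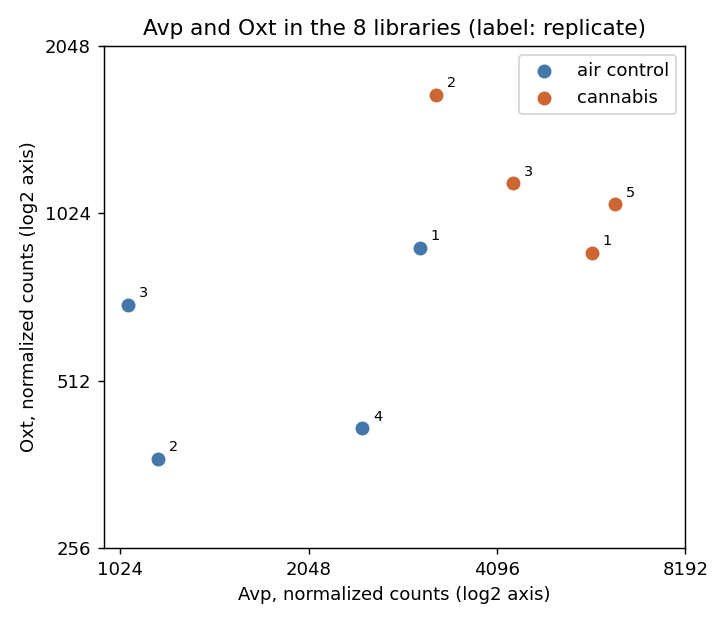
Avp against Oxt gene totals in the 8 libraries (normalized counts, both axes log2 scaled), with air control and cannabis libraries marked and numbered by replicate. The cannabis libraries lie higher on both axes as a group, while within the cannabis group the library with the highest Oxt (replicate 2) has the lowest Avp.

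Avp and Oxt lie next to each other in the rat genome, with 0 annotated genes between them in GRCr8, and Mrps26 and Ubox5 flank the pair. Mrps26, a mitochondrial ribosomal protein gene on the Oxt side, averaged 318.5 ± 54.5 (SD, n = 4) normalized counts in the air controls and 368.1 ± 75.3 in the cannabis libraries (log2 difference 0.20, 95% interval -0.26 to 0.67). Ubox5, a ubiquitin ligase gene on the Avp side, averaged 49.1 ± 4.29 and 46.1 ± 19.7 (log2 difference -0.22, 95% interval -0.98 to 0.54). Neither flanking gene passed the threshold.

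Pdyn and Gal encode peptide precursors that magnocellular neurons can release beside the hormones. Pdyn, the dynorphin precursor gene, gave 125.7, 134.1, 110.8 and 83.4 normalized counts in the air controls and 114.2, 182.0, 163.3 and 162.8 in the cannabis libraries. Cannabis replicates 2, 3 and 5 lay above all air controls, and cannabis replicate 1 lay among them. The means were 113.5 ± 22.3 (SD, n = 4) and 155.6 ± 29.0 (SD, n = 4), and the log2 difference of 0.45 (SE 0.23, 95% interval -0.05 to 0.96) did not pass (limma P = 0.0747, exact permutation P = 0.0857). Gal, the galanin precursor gene, gave 40.9, 31.1, 25.5 and 43.7 normalized counts in the air controls and 21.1, 36.5, 22.6 and 56.8 in the cannabis libraries. Both the lowest and the highest Gal value were in the cannabis group. Its log2 difference was -0.12 (95% interval -0.88 to 0.63, limma P = 0.731, exact permutation P = 0.743), an interval that holds the difference of Pdyn in either direction. Pdyn rested on 1235 reads and Gal on 311.

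**Figure D3:**
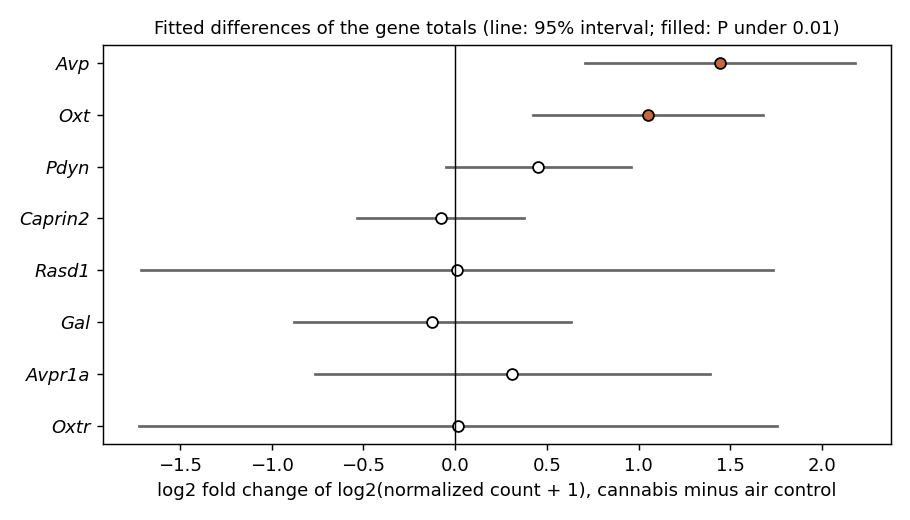
Log2 difference (cannabis minus air control) of the gene totals of the 8 members, as a point with its 95% interval from the limma fit, with a line at 0. The intervals of Avp and Oxt lie above 0, that of Pdyn just reaches it, and those of Rasd1 and Oxtr are the widest.

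Rasd1 encodes a small Ras-like GTPase that is induced in magnocellular neurons by osmotic stimuli. It was near the detection limit, with 22, 4, 5 and 1 reads in the air controls and 0, 20, 9 and 11 reads in the cannabis libraries. The values were 16.1, 4.79, 3.36 and 1.99 normalized counts against 0, 13.3, 8.86 and 8.45. The groups overlapped fully, and the log2 difference of 0.01 had a 95% interval from -1.71 to 1.73 (limma P = 0.988, exact permutation P = 1). A change of 2-fold in either direction lies inside that interval and was not detectable with these libraries.

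Caprin2 encodes an RNA-binding protein that is known to bind vasopressin mRNA and to act on its poly(A) tail. Its total was 127.9, 152.0, 117.5 and 99.3 normalized counts in the air controls and 108.0, 124.9, 114.1 and 118.3 in the cannabis libraries. The cannabis values all lay inside the air control range. The means were 124.2 ± 22.01 (SD, n = 4) and 116.3 ± 7.08 (SD, n = 4), with a log2 difference of -0.08 (SE 0.21, 95% interval -0.53 to 0.38, limma P = 0.715, exact permutation P = 0.6). Caprin2 was the only member with more than 1 polyadenylation site, and its 5 sites are numbered here from the most to the least abundant. None of the 5 passed the 0.01 threshold in the limma fit over sites, in which 375 of 98356 sites did (0.381%), 0.123% higher and 0.258% lower. Of the 12 member sites those of Avp and Oxt passed, both higher, and 0 passed an adjusted P below 0.1, as 0.00102% of all sites did. In 1 of the 12, that of Avp, the cannabis libraries lay above every air control (0.992% of all sites), and in 0 below (1.01%).

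The most abundant Caprin2 site took 45.7%, 45.7%, 49.7% and 86% of the transcript ends of the gene in the air controls and 56.3%, 72.9%, 50.9% and 69.5% in the cannabis libraries. Air control replicate 4, the shallowest library, stood far above the other air controls, which lay below every cannabis library. The mean share was 56.8% ± 19.6 (SD, n = 4) against 62.4% ± 10.5 (SD, n = 4), with an exact permutation P of 0.714. Site 2 took 28%, 28.3%, 24% and 4% in the air controls and 24.1%, 12.2%, 16.4% and 14.3% in the cannabis libraries (exact permutation P = 0.486). Site 2 was lowest in air control replicate 4, where site 1 was highest, and otherwise higher in the air controls than in most cannabis libraries. Sites 3, 4 and 5 gave exact permutation P values of 0.971, 0.257 and 0.886, and adjusted over the 5 sites every P was 0.971. Site 4 had the largest difference in level, -0.98 on the log2 scale (limma P = 0.133, exact permutation P = 0.143).

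**Figure D4:**
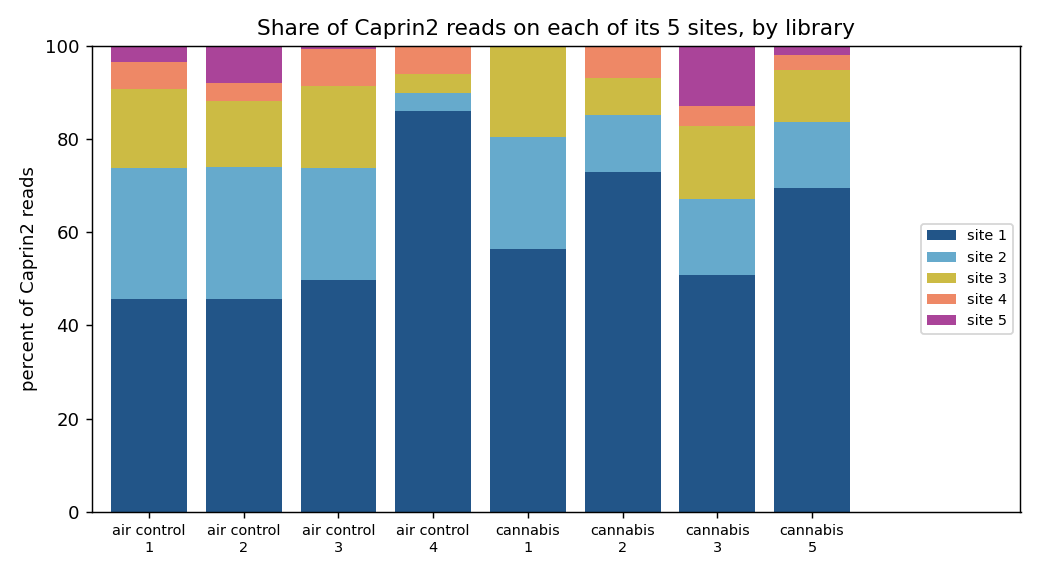
Share of Caprin2 transcript ends at each of its 5 polyadenylation sites (percent of the gene total), as a stacked bar for each of the 8 libraries. Site 1 takes between 45.7% and 86% of the ends, with the highest share in air control replicate 4.

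The receptor members, with Rasd1, were the least abundant. Avpr1a, the gene of the vasopressin V1a receptor, had 4, 9, 6 and 6 reads in the air controls and 11, 10, 8 and 8 in the cannabis libraries. Cannabis replicates 1 and 2 had more reads than any air control. After normalization the values were 2.92, 10.8, 4.03 and 11.9 against 13.7, 6.64, 7.87 and 6.14 normalized counts, and the groups overlapped. The log2 difference was 0.31 (SE 0.50, 95% interval -0.77 to 1.39, limma P = 0.545, exact permutation P = 0.514). Oxtr, the oxytocin receptor gene, had 7, 4, 6 and 0 reads in the air controls and 0, 18, 2 and 5 in the cannabis libraries. Oxtr was without a read in 1 library of each group, and more of its 42 reads fell in cannabis replicate 2, the deepest library, than in any other. Its log2 difference was 0.02, with a 95% interval from -1.72 to 1.76 (limma P = 0.984, exact permutation P = 1). A level 2-fold higher in the cannabis libraries lies inside both intervals and was not detectable with these libraries.

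Over the 8 libraries, the log2 totals of the members gave 28 pairs. Pearson's r was positive in 17 pairs, with a median of 0.17 and a range from -0.69 to 0.81, and no pair passed after Benjamini-Hochberg adjustment over the 28 pairs (lowest adjusted permutation P = 0.323). Avp and Oxt gave r = 0.61 (permutation P = 0.104, adjusted 0.365) and Spearman's rho = 0.64 (permutation P = 0.0962, adjusted 0.299). Without air control replicates 2 and 3, the libraries farthest from the median of Avp, r was 0.38. When each library was expressed as its deviation from the mean of its group, r between Avp and Oxt was -0.01 (permutation P = 0.967). Taken separately, r was 0.31 in the 4 air controls and -0.89 in the 4 cannabis libraries, each from only 4 values. The hormone genes differed between the groups in the same direction. No variation of this pair common to both groups was detectable with these 8 libraries.

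Oxt and Pdyn gave r = 0.73 (permutation P = 0.0395, adjusted 0.323) and rho = 0.76 (permutation P = 0.0368, adjusted 0.299), with r = 0.92 without air control replicates 2 and 4 and r = 0.47 for the deviations from the group means (permutation P = 0.290). The highest r was that of Rasd1 and Oxtr, at 0.81 (permutation P = 0.0143, adjusted 0.323), with rho = 0.75 (permutation P = 0.0380, adjusted 0.299). This r fell to 0.35 without air control replicate 4 and cannabis replicate 1, the libraries farthest from the median of Rasd1. Both genes had a library without any read. Caprin2 and Oxtr gave r = 0.72 (permutation P = 0.0395, adjusted 0.323) and rho = 0.87 (permutation P = 0.00794, adjusted 0.222), with r = 0.89 without air control replicates 2 and 4. For the deviations from the group means, 7 of the 28 pairs had a permutation P below 0.05. After adjustment none was below 0.05, and the lowest adjusted P of 0.0810 was below 0.1. These lowest values belonged to Pdyn and Oxtr (r = 0.93, permutation P = 0.00694), Pdyn and Caprin2 (r = 0.85, permutation P = 0.00694) and Caprin2 and Oxtr (r = 0.74, permutation P = 0.00868). Over the libraries themselves, Pdyn and Oxtr gave r = 0.70 (permutation P = 0.0541, adjusted 0.323) and rho = 0.50 (permutation P = 0.209, adjusted 0.524). Pdyn and Caprin2 gave r = 0.47 (permutation P = 0.243, adjusted 0.613) and rho = 0.48 (permutation P = 0.243, adjusted 0.524). These r values fell to 0.22 and 0.04 without air control replicate 4 and cannabis replicate 2. With every library scaled to an equal number of reads, 1 of the 28 pairs had a Pearson permutation P below 0.05, against 3 above. Caprin2 and Oxtr then gave r = 0.66 (permutation P = 0.0730) and rho = 0.68 (permutation P = 0.0729), and Oxt and Pdyn r = 0.71 (permutation P = 0.0513). For the deviations, 7 pairs stood below 0.05 and the lowest adjusted permutation P was 0.0972. Caprin2 and Oxtr gave a permutation P of 0.0625 there.

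Some of the member totals correlated with library depth after normalization, though no adjusted P was below 0.05. Oxtr gave r = 0.82 with the log2 number of reads on sites (permutation P = 0.0109, adjusted over the 8 members 0.0766; rho = 0.80, permutation P = 0.0222, adjusted 0.0889), and r = 0.59 without air control replicate 4 and cannabis replicate 2. Avpr1a gave r = -0.79 (permutation P = 0.0191, adjusted 0.0766; rho = -0.81, permutation P = 0.0218, adjusted 0.0889), and r = -0.94 without the same libraries. Oxt gave r = 0.69 (permutation P = 0.0604, adjusted 0.141; rho = 0.57, permutation P = 0.151, adjusted 0.302), and r = 0.34 without them. Avp gave r = 0.02 (permutation P = 0.968, adjusted 0.968; rho = -0.10, permutation P = 0.840, adjusted 0.840), and r = -0.13 without them. Of the other members, Pdyn gave r = 0.66 (permutation P = 0.0704, adjusted 0.141), and r = -0.05 without the same libraries. Rasd1 gave r = 0.62 (permutation P = 0.102, adjusted 0.164), and r = 0.55 without them. For Caprin2 and Gal r was 0.40 and 0.08. The part of depth in the pairs above was not tested.

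Among 6103 genes with a mean total of at least 50 normalized counts, those whose log2 totals followed Avp most closely over the 8 libraries were Mppe1 (r = 0.98), Zfp275 (r = 0.95), Sorbs2 (r = 0.93), Ctsz (r = 0.91) and Ankhd1 (r = 0.88). Those closest to Oxt were Ilf2 and Klhl2 (r = 0.95 each), Tubg1 and Polr3k (r = 0.93 each) and Mettl10 (r = 0.92). These are the extremes of a search, they include the difference between the groups, and none of these 10 genes passed the 0.01 threshold.

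Genes that work with the members were taken from lists by role. Among receptors and the oxytocin-cleaving peptidase, 4 of 7 genes were found and 0 passed in either direction (median log2 difference -0.07). Lnpep, which encodes the peptidase that degrades oxytocin and vasopressin, differed by -0.34 on the log2 scale (95% interval -0.98 to 0.31), and Oprk1, the receptor of dynorphin, by 0.19 (-0.68 to 1.06). Avpr1b, Avpr2 and Galr2 were not analysed here. Among genes of precursor processing and granules, 8 of 10 were found and 0 passed (median 0.03). Cpe, the carboxypeptidase that trims precursor fragments, averaged 1399 ± 904 (SD, n = 4) in the air controls and 1846 ± 541 in the cannabis libraries (log2 difference 0.56, 95% interval -0.22 to 1.33). Scg5, the chaperone of the convertase PC2, averaged 1549 ± 337 and 1439 ± 550 (log2 difference -0.15, 95% interval -0.73 to 0.43). Of all gene totals 0.278% passed, so 0 of 8 does not set the processing genes apart. The interval of Cpe holds the log2 difference of Oxt (1.05).

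All 4 transcription factors of the magnocellular lineage were found and 0 passed (median 0.15). Sim1, needed for the development of these neurons, averaged 98.1 ± 59.7 (SD, n = 4) in the air controls and 76.7 ± 12.8 in the cannabis libraries (log2 difference -0.21, 95% interval -0.92 to 0.51), and Pou3f2 differed by 0.16 (-0.41 to 0.72). The sum over the 4 factors ranged from 245 to 373 in the air controls and from 282 to 377 in the cannabis libraries, and the groups overlapped only through air control replicate 4, the highest of the air controls. Among 12 genes of cAMP and activity signalling, 10 were found and 0 passed (median 0.10), with Atf4 differing by 0.48 (95% interval -0.25 to 1.21) and Crtc1 by -0.03 (-0.47 to 0.42). Pcsk1, Pcsk1n, Crtc2 and Nr4a1, of these lists, were not analysed here.

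All 11 genes of a list tied to osmotic responses and magnocellular co-transmitters were found, of which 0 were higher and 2 lower at the 0.01 threshold (median -0.01). Cck, the cholecystokinin precursor gene, which oxytocin neurons can express, averaged 114.2 ± 23.7 (SD, n = 4) in the air controls and 49.5 ± 7.29 in the cannabis libraries. Its log2 difference was -1.18 (limma P = 0.000278, adjusted P = 0.999, exact permutation P = 0.0286), opposite in sign to that of Oxt. Th, the rate-limiting enzyme gene of catecholamine synthesis, averaged 304.8 ± 46.6 and 117.0 ± 42.9, a log2 difference of -1.43 (limma P = 9.28e-05, adjusted P = 0.557, exact permutation P = 0.0286). Cck and Th are also expressed by midbrain dopamine neurons. Slc6a3, the dopamine transporter gene and 1 of the listed markers of those cells, gave 320.9, 237.0, 266.5 and 256.2 in the air controls. It gave 16.1, 12.6, 38.4 and 59.9 in the cannabis libraries (log2 difference -3.30, limma adjusted P = 0.0218). The part of those cells in the differences of Cck and Th was not tested. Cartpt and Penk, of the same list, differed by 0.36 (95% interval -0.13 to 0.85) and -0.01 (-0.53 to 0.51).

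**Figure D5:**
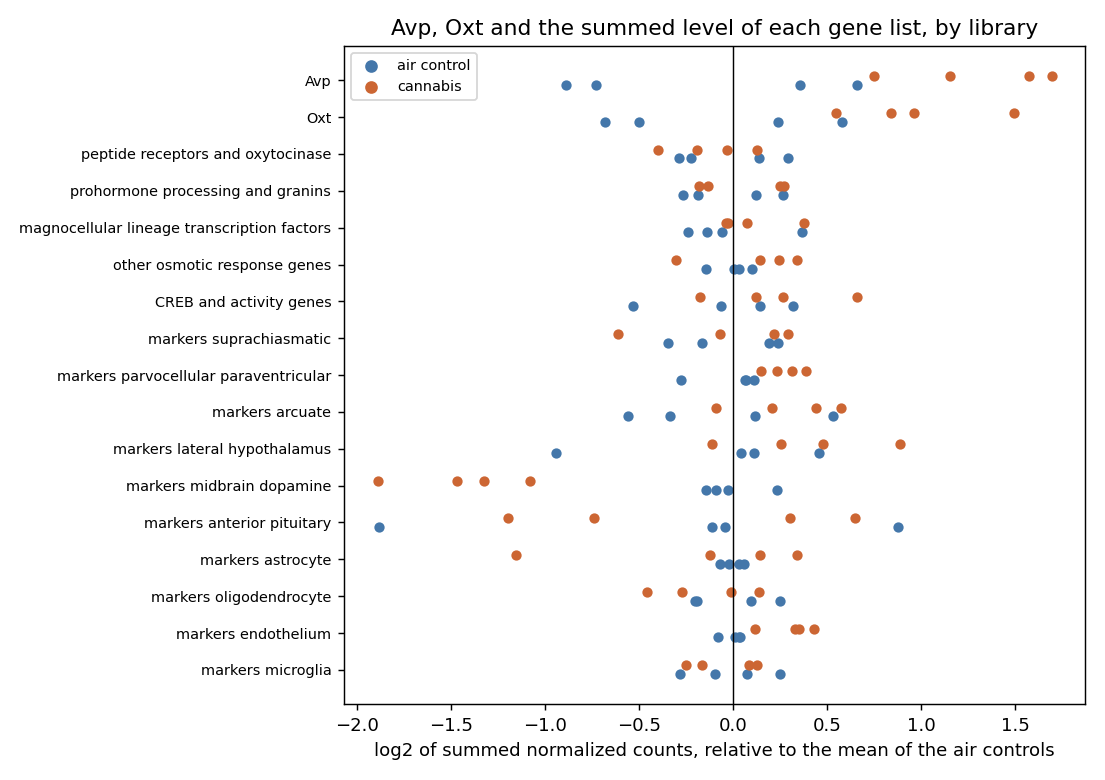
Avp, Oxt and the summed normalized counts of each gene list in the 8 libraries, as the log2 ratio to the mean of the air controls (x axis), with a point for each library and the groups marked. The cannabis points of Avp and of the parvocellular and endothelial lists lie right of all air control points, and those of the midbrain dopamine list lie left of them.

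Markers of other cell types were measured beside the members. Of the 5 markers of the suprachiasmatic nucleus found, whose neurons also make vasopressin, 0 passed, and their sum was 84.1 to 126 in the air controls and 69.9 to 131 in the cannabis libraries. Of the 3 parvocellular paraventricular markers 0 passed (median 0.29). Their sum was 498 to 651 in the air controls and 667 to 788 in the cannabis libraries, without overlap. Most of this sum was Trh, whose own values overlapped (443 to 620 against 604 to 743). Endothelial markers gave sums of 81.1 to 88.0 and 93.0 to 115, with 0 of 3 passing. Most of that sum was Flt1, which overlapped as well (60.7 to 77.9 against 77.1 to 105). Flt1 differed by 0.42, Cldn5 by 0.19 and Pecam1 by -0.67. In both lists, 0 single markers had all cannabis libraries above all air controls. The medians were 0.31 for 4 arcuate markers and 0.40 for 2 lateral hypothalamic markers, and -0.25, -0.16 and -0.30 for astrocyte, oligodendrocyte and microglial markers, with 0 passing in each list. The 3 pituitary markers found had a median of -0.03, with 0 passing. Prok2, Nms, Npy, Gh1 and Prl were not analysed here. The part of these cell types in the differences of Avp and Oxt was not tested.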

How the data were processed

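RNA ends were measured by WTTS-Seq in 8 rat hypothalamus libraries. The authors filtered reads for quality with the FASTX Toolkit, trimmed leading Ts with their own scripts, aligned the reads with TMAP 3.4.1 to Rnor_6.0, grouped 3′ ends into sites, annotated these with Cuffcompare 2.2.1 and NCBI Annotation Release 106, and deposited a signal per site, which is the read count after scaling by a DESeq2 size factor. Dividing by the smallest step of each library gave whole reads for 100% of the values within 0.001. The 8 libraries were joined by row order, sites were summed per symbol, and log2(normalized count + 1) was fitted over all sites and all gene totals with limma 3.58.1 (trended variance, no pairing, Benjamini-Hochberg adjustment). Fold changes are on that scale and understate those of low genes. Single values had exact permutation tests. The thresholds, an unadjusted P below 0.01 and an adjusted P below 0.1, are those of the study. The fit was tested on simulated data.

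The members, gene lists and named genes were chosen with earlier results of these data known. The genes named are all members, plus, for each list, those past the 0.01 threshold and the 2 with the highest mean total, the genes that flank Avp and Oxt, and the 5 that followed each of them most closely. Libraries are treated as separate samples, which the labels do not tie to single rats, and the p-values measure only the spread between these samples. The fits were repeated with a block for the replicate number, without each library, with a pseudocount of 0.5 or 5, on features whose mean reached 10, at equal library totals, and with edgeR 4.0.16 and DESeq2 1.42.0 on the recovered reads. R 4.3.3 and Python 3.11.15 were used.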

Additional observations from a re-analysis of the deposited data

Results flagged for a closer look

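Of 38 groups of 4 values checked for a sample far from the others, 4 held one, and chance alone gives about 1 in 20. All concerned the sites of Caprin2. Site 3 held 3.97 normalized counts in air control replicate 4, against 20.8 to 21.9 in the other air controls, and site 1 took 86% of the Caprin2 ends in the same library, against 45.7% to 49.7%. Site 5 held 14.8 normalized counts in cannabis replicate 3, against 0 to 2.30 in the other cannabis libraries, and took 12.9% of the ends there, against 0% to 1.95%. Air control replicate 4 was the shallowest library, and the part of depth in its values was not tested.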

How the results depend on the processing

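Avp passed the 0.01 threshold in the limma fit of gene totals without each of the 8 libraries in turn (log2 difference 1.20 to 1.71), and in every other fit tried. Its exact permutation P was 0.0286 without air control replicate 1 and without air control replicate 4, and 0.0571 without any other single library. Without single libraries, Oxt differed by 0.85 to 1.27, 1 to 2 member totals and 2 to 2 member sites passed, and 0 to 2 members stood at an exact permutation P below 0.05. With the replicate number as a block, 1 member total and 1 member site passed and Oxt differed by 0.96 and did not pass. Air control replicate 4 and cannabis replicate 5 had no partner, so the block compared only the 3 same-numbered pairs. Deviations of same-numbered libraries from their group means correlated at -0.23 to 0.09 over 3 pairs, against -0.39 to 0.49 for different numbers. Of the air controls in these pairs, 0 of 3 correlated best with their own number. The pairs are few and the deviations cancel within each group, so these correlations cannot decide whether the numbers pair the libraries. Over all genes, 50 totals passed, against 24 with the block, 76 by DESeq2, 29 with a mean of at least 10 and 30 to 90 without single libraries. Over all sites, 375 passed, against 229, 44 with that mean and 227 to 617. The balance of these gene totals, 18 higher and 32 lower, was 14 and 41 with equal library totals, 12 and 42 by edgeR, 12 and 64 by DESeq2, 15 and 15 without air control replicate 1, 31 and 30 without cannabis replicate 3 and 9 and 66 without cannabis replicate 2. It turned to 49 higher and 35 lower without air control replicate 3. For sites, 121 higher and 254 lower turned to 141 and 90 without air control replicate 1.

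Reversed signs were all among differences that did not pass. Rasd1 differed by -0.54 with the block, -0.14 with a pseudocount of 0.5 and -0.041 with equal totals, and Oxtr by -0.74, -0.0029 and -0.015. Caprin2 site 3 differed by -0.44 with the block, -0.012 with a pseudocount of 5, -0.20 by edgeR and -0.22 by DESeq2. Without single libraries, the ranges were -0.40 to 0.88 for Rasd1, -0.61 to 0.64 for Oxtr, -0.18 to 0.023 for Caprin2 and -0.40 to 0.064 for Gal. They were -0.019 to 0.21, -0.87 to 0.18, -0.50 to 0.24 and -1.14 to 0.37 for Caprin2 sites 1, 2, 3 and 5, and -2.82 to 2.11 and -2.32 to 2.39 percentage points for the shares of sites 3 and 5. The cause of these changes was not tested. Rasd1, Avpr1a and Oxtr had few reads, with 72, 62 and 42 in all.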

Other observations

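A pair of low genes of the lists were singled out after their values were seen. Galr3, a galanin receptor gene, had 2, 2, 5 and 1 reads in the air controls and 12, 10, 3 and 6 in the cannabis libraries, a log2 difference of 1.16 (95% interval 0.01 to 2.30, exact permutation P = 0.0571) that did not pass the 0.01 threshold. Creb3l2, a relative of Creb3l1, had 1, 0, 2 and 0 reads in the air controls and 6, 4, 0 and 6 in the cannabis libraries.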
